A study of Homo sapiens with 9 samples.

Results

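KLF9 and 9 other members of the Kruppel-like factor (KLF) family were followed in HepG2 cells given a thyroid hormone receptor ligand. The family members are KLF2, KLF3, KLF4, KLF5, KLF6, KLF7, KLF9, KLF10, KLF11 and KLF13. They were taken as the probe sets whose array annotation gives a single gene symbol that is one of these names, which gave 16 probe sets for 10 genes, of 22215 probe sets and 11963 genes in all. KLF9 and KLF6 had 3 probe sets each, KLF4 and KLF5 had 2 each, and the other 6 genes had 1 each. HepG2 is a long-established human hepatoma line whose cells still make many hepatocyte products. All cells stood in medium with serum depleted of thyroid hormone and received 10 nM GC-1, 10 nM of the hormone triiodothyronine (T3) or vehicle, and RNA was taken at 24 h from 3 samples per group. GC-1 (sobetirome) is a synthetic agonist of the thyroid hormone receptors that prefers the beta form. Compared with T3 it carries alkyl groups where T3 carries iodine, a methylene link between the rings and an oxyacetic acid side chain. Its effect in these cells was set beside that of T3 at a matched dose and time.

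KLF proteins are transcription factors that bind GC-rich and CACC-type DNA through a run of zinc fingers at their carboxyl end, while their amino ends recruit coactivators or corepressors such as SIN3A and CtBP. KLF9, once named BTEB1, is known as a direct target of thyroid hormone in brain and liver and also responds to glucocorticoids, and a well-studied hormone-responsive enhancer of the gene lies far upstream of its start. Roles described for other members include growth control, TGF-beta signalling (KLF10 and KLF11), endothelial and epithelial identity (KLF2, KLF4 and KLF5) and metabolism (KLF3 and KLF13).

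The values are log2 signals of Affymetrix arrays, normalized with RMA by the submitters, and a difference of 1 on this scale is a doubling or halving. Array medians lay between 7.02 and 7.06. T3 replicates 1 and 2 had the widest spread of signals, with interquartile ranges of 2.99 and 2.97 log2 units against 2.83 to 2.88 on the other 7 arrays, and the T3 differences of 4 probe sets of KLF9, KLF6 and KLF5 are also given without them. Whether the replicates were grown as separate cultures is not given in the labels, and the p-values therefore cover only sample-to-sample spread, possibly technical. The hepatocyte label was borne out by its markers: the 7 measured, ALB, AFP, APOA1, TTR, SERPINA1, TF and FGB, had mean signals of 12.1 to 14.4. Of these FGB, a fibrinogen chain, rose by 0.65 with GC-1 and by 0.69 with T3 (adjusted p = 5.62e-05 and 2.13e-05, limma), and the other 6 did not pass. Endothelial markers, which matter here because KLF2 and KLF4 are endothelial factors, had mean signals of 4.96 (CDH5) to 6.61 (VWF) over 6 genes. With either ligand 0 of 6 passed the test. Of all genes 3.26% passed with GC-1 and 6.22% with T3, so that this count is near the background. Over arrays the summed signal of those 6 markers ran from 34.9 to 35.6 with GC-1, from 34.5 to 35.7 with T3 and from 34.6 to 35.3 with vehicle. The leukocyte marker PTPRC lay at 4.93. LYZ, a macrophage marker, lay at 12.5, and with GC-1 and T3 it had log2 differences of 0.04 and 0.02 (adjusted p = 0.902 and 0.928, limma). CD3E lay at 7.06, and the 5 fibroblast markers ran from 5.19 (COL3A1) to 10.2 (ACTA2). Of these 0 passed the test, again near the shares of all genes.

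KLF9 rose with both ligands on 2 of its 3 probe sets, and on those it had the largest changes of the family. The probe set 203542_s_at, the KLF9 set with the highest mean signal, read 7.52, 7.33 and 7.44 on the GC-1 arrays, 7.35, 7.72 and 7.34 on the T3 arrays, and 6.36, 6.16 and 6.39 on the vehicle arrays. Every ligand array stood above every vehicle array, while the GC-1 and T3 arrays overlapped. It averaged 7.43 ± 0.10 with GC-1, 7.47 ± 0.21 with T3 and 6.30 ± 0.12 with vehicle (SD, n = 3 each). In limma, fitted over all probe sets and adjusted by Benjamini-Hochberg, the rise was 2.18-fold with GC-1 (log2 1.12 ± 0.10 SE, adjusted p = 0.000105) and 2.24-fold with T3 (log2 1.17 ± 0.10 SE, adjusted p = 4.75e-05). Without T3 replicates 1 and 2 the T3 rise was 1.04 log2 units (adjusted p = 0.00157). That fit has a single T3 array, which is assumed to vary like the GC-1 and vehicle arrays that supply all of its spread. In bulk RNA a change in the share of cells that express a gene and a change in RNA per cell cannot be told apart.

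A second KLF9 probe set, 203543_s_at, changed more. It read 7.54, 7.33 and 7.46 with GC-1, 7.55, 7.37 and 7.37 with T3, and 6.06, 5.78 and 5.65 with vehicle. The ligand arrays of this set lay within a narrow band well clear of vehicle. Its rise was 3.06-fold with GC-1 (95% interval 2.63 to 3.56, adjusted p = 9.00e-06, limma) and 3.03-fold with T3 (95% interval 2.61 to 3.53, adjusted p = 4.70e-06). Without T3 replicates 1 and 2 its T3 difference was 1.54 log2 units (adjusted p = 0.00123), with the same assumption. Over the 9 arrays its signal and that of 203542_s_at had a Pearson r of 0.962, a description over points that share the step between ligand and vehicle arrays.

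The third KLF9 probe set, 203541_s_at, did not pass the test with either ligand. At a mean signal of 6.01 over the 9 arrays, above 28.9% of all probe sets, it was the dimmest of the 3. Differences of dim sets may be understated, which was not tested for this set. On vehicle arrays alone 203541_s_at averaged 5.92, between 203543_s_at (5.83) and 203542_s_at (6.30). It read 5.81, 6.24 and 6.16 with GC-1, 5.93, 6.17 and 6.01 with T3, and 5.88, 5.85 and 6.03 with vehicle, so all 3 groups overlapped. Its log2 difference was 0.15 with GC-1 (95% interval -0.08 to 0.38, adjusted p = 0.546, limma) and 0.12 with T3 (95% interval -0.11 to 0.35, adjusted p = 0.564), intervals that end below the rises of the other 2 sets. The annotation lists the same transcript accession for 203541_s_at and 203543_s_at, and where in the transcript each set binds is not given there. Names that end in _s_at mark sets whose probes can match more than 1 transcript.

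Whether the probe sets of 1 gene moved differently was tested on their array-by-array difference, over the 6 ligand arrays against the 3 vehicle arrays, for the 8 pairs of probe sets that share a gene, a test chosen with the values known. The signal of 203541_s_at minus that of 203542_s_at averaged -1.40 ± 0.22 on ligand arrays and -0.38 ± 0.09 on vehicle arrays (SD, exact two-sided permutation p = 0.0119, adjusted over the 8 pairs 0.0476). Against 203543_s_at it averaged -1.38 ± 0.25 on ligand arrays and 0.09 ± 0.28 on vehicle arrays (exact permutation p = 0.0119, adjusted 0.0476). With 84 possible regroupings 0.0119 is the smallest p this test can give. For the 2 responding sets, 203542_s_at minus 203543_s_at averaged 0.01 ± 0.18 on ligand arrays and 0.47 ± 0.24 on vehicle arrays. That contrast did not pass after adjustment (exact permutation p = 0.0238, adjusted 0.0635). Averaged over its 3 probe sets, KLF9 was 0.96 log2 units higher with GC-1 (adjusted p = 9.99e-06, limma) and also 0.96 higher with T3 (adjusted p = 6.19e-06).

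**Figure D1:**
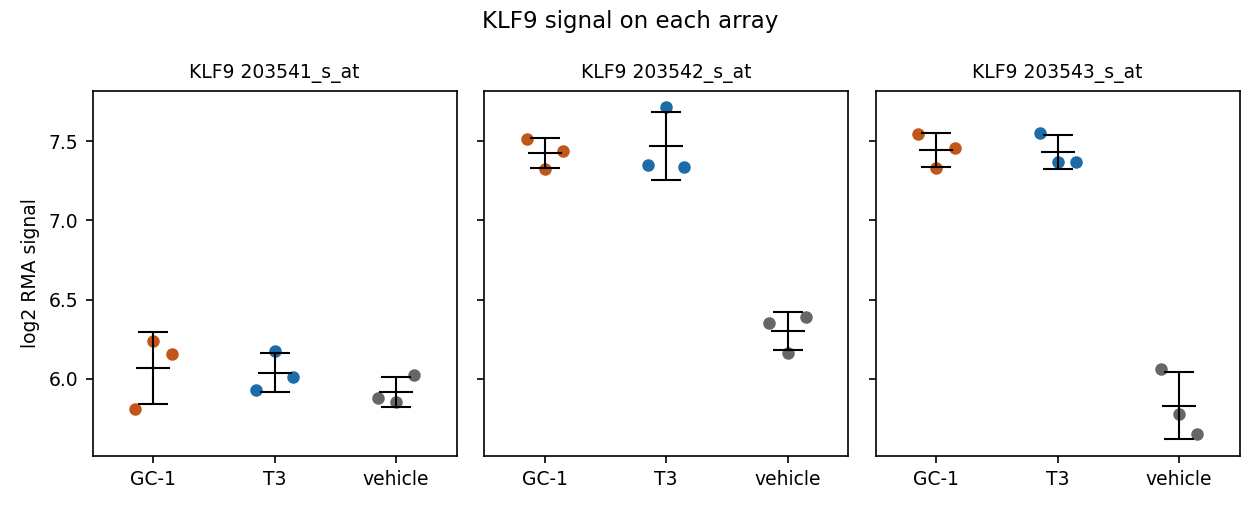
Log2 RMA signal (y axis) of the 3 KLF9 probe sets on each array of the GC-1, T3 and vehicle groups, with points for arrays, a long bar for the mean and whiskers for 1 SD (n = 3). In 203542_s_at and 203543_s_at all 6 ligand arrays stood above the 3 vehicle arrays, while in 203541_s_at the groups overlapped.

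The starts of KLF9 and KLF6 are shown because these are the members with a probe set past the test. For KLF6 this was 208961_s_at alone and with T3 alone, a call lost in 10 of 18 alternative fits. Each is the 250 bases before the RefSeq start (GRCh38.p14), read 5′ to 3′ on the gene's strand, at chr9:70414658-70414907 on the minus strand for KLF9 and chr10:3785210-3785459 on the minus strand for KLF6. Capitals mark matches to the GC box GGGCGG or the KLF-type box CACCC on either strand.
KLF9: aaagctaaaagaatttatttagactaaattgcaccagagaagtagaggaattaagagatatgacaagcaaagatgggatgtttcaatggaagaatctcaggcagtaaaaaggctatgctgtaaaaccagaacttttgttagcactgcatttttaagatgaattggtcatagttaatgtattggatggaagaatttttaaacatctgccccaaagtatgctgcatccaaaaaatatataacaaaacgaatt
KLF6: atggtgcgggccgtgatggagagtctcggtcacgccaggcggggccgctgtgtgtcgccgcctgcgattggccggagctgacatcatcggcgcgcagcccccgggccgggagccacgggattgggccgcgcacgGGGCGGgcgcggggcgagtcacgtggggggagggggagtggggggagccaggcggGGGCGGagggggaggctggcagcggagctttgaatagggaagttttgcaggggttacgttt
The KLF9 window holds no capitals and is 32.4% G or C, lower than all but 2.92% of the 35116 promoter windows of this length in the table. The KLF6 window is 72.4% G or C and holds 2 GC boxes, starting 116 and 61 bases before the gene's start. Neither holds the receptor core hexamer AGGTCA or its direct repeat with 4 bases of any kind between, searched on both strands, which says only that these letters are not in these windows.

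Promoter windows were found for 8 of the 10 genes, 13 windows in all because KLF5, KLF7 and KLF11 have several annotated starts. KLF3 and KLF10 are named only. The GC box stood in 8 of the 13 windows and in 42.6% of all windows, and CACCC stood in 6 of 13 and in 54.7% of all. AGGTCA stood in 1 of 13, 55 bases before 1 of the 4 KLF7 starts, and in 12.1% of all windows. The spaced repeat stood in 0 of 13 and in 0.0142% of all. In KLF13 a GC box and a CACCC match overlapped. These matches are descriptions of the letters, and KLF7, with the only hexamer, had log2 differences of 0.03 with GC-1 and -0.11 with T3, neither past the test.

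**Figure D2:**
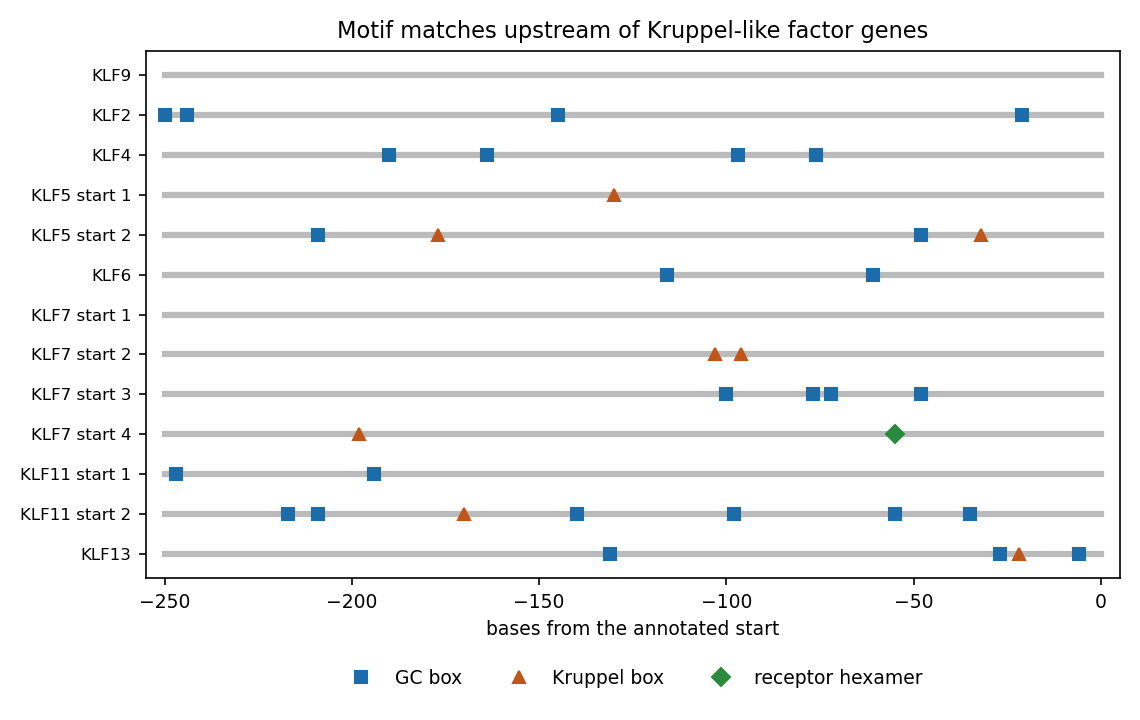
Positions (x axis, bases from the annotated start) of GC boxes, KLF-type boxes and receptor hexamers in the 13 upstream windows of 8 Kruppel-like factor genes, 1 line per annotated start. KLF9 and the first KLF7 start have no match, and KLF11 has the most GC boxes, 6 at its second start.

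KLF6, a growth-restraining factor that is induced in injured liver, was the other member with a change, a small one seen with T3. Its probe set 208961_s_at read 9.03, 8.89 and 9.00 with GC-1, 9.05, 8.98 and 9.09 with T3, and 8.82, 8.80 and 8.83 with vehicle. All ligand arrays lay above all vehicle arrays, which sat close together (SD 0.02). The set rose 1.17-fold with T3 (log2 0.23 ± 0.05 SE, adjusted p = 0.0351, limma), and with GC-1 its log2 difference was 0.16 ± 0.05 SE (adjusted p = 0.176). The T3 call was kept in 8 of 18 alternative fits and lost in 10 (adjusted p 0.0557 to 0.108). It was lost without T3 replicate 1 or 3, without GC-1 replicate 3 and without any 1 of the vehicle replicates. It was also lost with the replicate number as a block (adjusted p = 0.0557) and in the 2-group fit (adjusted p = 0.0655, limma). Quantile normalization (log2 0.19, adjusted p = 0.0840) and equal interquartile range (0.18, adjusted p = 0.106) lost it too. The interquartile range as covariate kept it (0.29, adjusted p = 0.0351). It held without T3 replicates 1 and 2 together (log2 0.28, adjusted p = 0.0474), a fit with 1 T3 array whose spread comes from the GC-1 and vehicle arrays alone.

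The other KLF6 probe sets did not pass. The set 208960_s_at read 8.09, 7.85 and 8.08 with GC-1, 8.02, 8.08 and 8.17 with T3, and 7.78, 7.99 and 7.93 with vehicle. Its T3 arrays lay above the vehicle arrays and its GC-1 arrays did not, with log2 differences of 0.11 with GC-1 (adjusted p = 0.577, limma) and 0.19 with T3 (adjusted p = 0.190). The set 211610_at pointed the other way, with -0.04 with GC-1 (adjusted p = 0.877) and -0.19 with T3 (adjusted p = 0.258), and its groups overlapped. The difference in movement between 208961_s_at and 211610_at did not pass over the ligand arrays (2.48 ± 0.19 on ligand arrays, 2.17 ± 0.10 on vehicle arrays, SD, exact permutation p = 0.0714, adjusted over the 8 pairs 0.143).

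KLF10 and KLF11, known as the TGF-beta inducible early genes TIEG1 and TIEG2, did not pass the test with either ligand. KLF10 read 9.88, 9.84 and 9.77 with GC-1, 9.86, 9.82 and 9.85 with T3, and 9.71, 9.70 and 9.73 with vehicle. Each ligand array was above each vehicle array by a small margin. Its log2 difference was 0.12 with GC-1 (95% interval 0.01 to 0.22, adjusted p = 0.260, limma) and 0.13 with T3 (95% interval 0.03 to 0.24, adjusted p = 0.149). KLF11 averaged 7.98 ± 0.02 with GC-1, 8.04 ± 0.07 with T3 and 7.89 ± 0.07 with vehicle (SD, n = 3 each), and both ligand groups overlapped vehicle. Its log2 difference was 0.09 with GC-1 (adjusted p = 0.499, limma) and 0.14 with T3 (adjusted p = 0.171).

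KLF5, a factor of proliferating epithelia, did not pass with either ligand, with negative differences on both of its probe sets. The set 209212_s_at read 6.09, 6.18 and 6.13 with GC-1, 5.97, 6.19 and 6.07 with T3, and 6.25, 6.21 and 6.35 with vehicle, with every ligand array below every vehicle array. The log2 difference of this set was -0.14 with GC-1 (adjusted p = 0.332, limma) and -0.19 with T3 (adjusted p = 0.124). The set 209211_at gave -0.20 with GC-1 (adjusted p = 0.210) and -0.17 with T3 (adjusted p = 0.228), and here 1 T3 array lay among the vehicle arrays. With T3 replicates 1 and 2 left out this second set passed with T3 (log2 -0.29, adjusted p = 0.04996, limma), with the spread again taken from the GC-1 and vehicle arrays alone, and it passed in none of the other 16 alternatives.

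**Figure D3:**
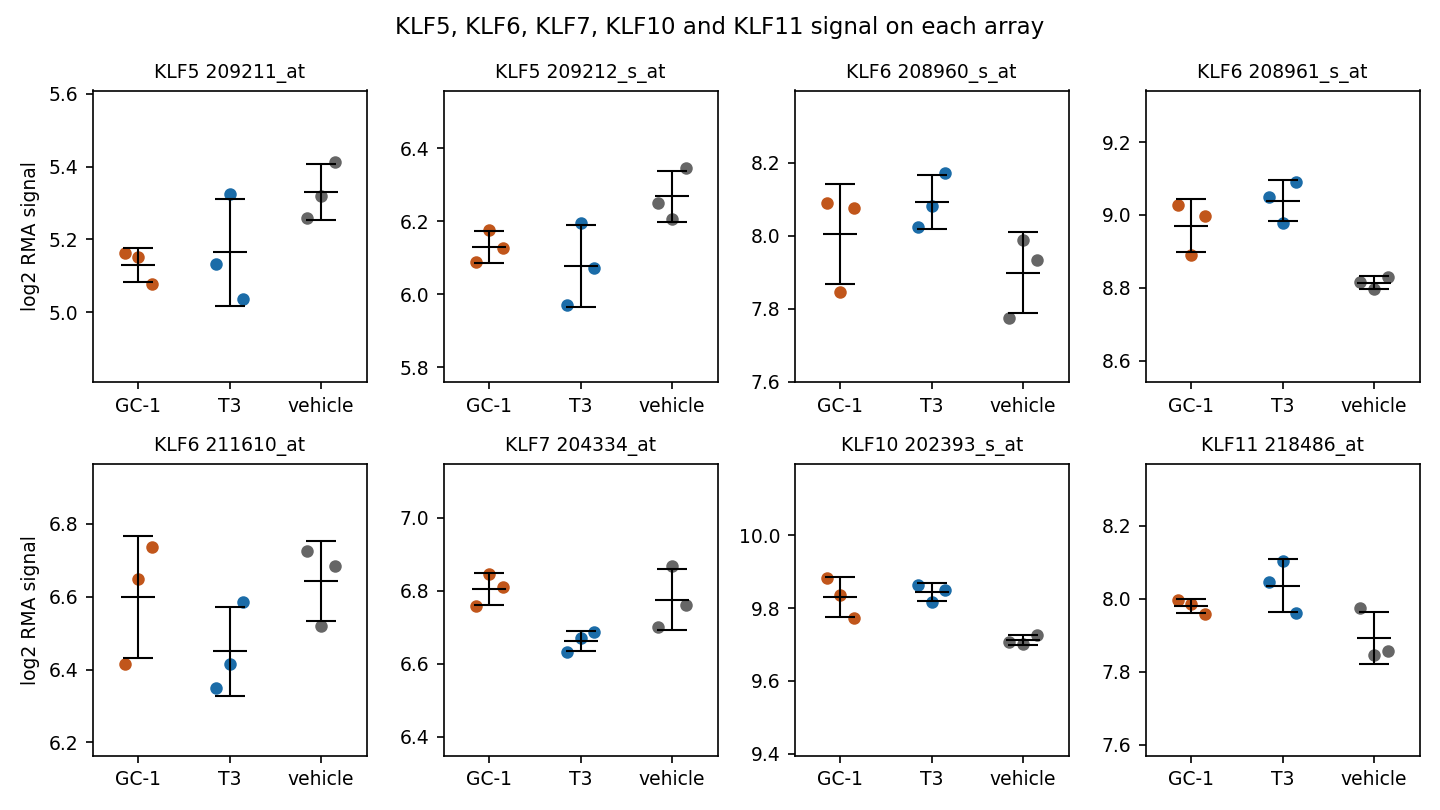
Log2 RMA signal (y axis, each panel spanning 0.8 log2 units) of 8 probe sets of KLF5, KLF6, KLF7, KLF10 and KLF11 on each array of the GC-1, T3 and vehicle groups, with points for arrays, a long bar for the mean and whiskers for 1 SD (n = 3). The ligand arrays of KLF6 208961_s_at and of KLF10 lie above all vehicle arrays, and those of KLF5 209212_s_at below them.

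KLF7, a factor of neural and fat cell development, read 6.76, 6.85 and 6.81 with GC-1, 6.63, 6.67 and 6.69 with T3, and 6.70, 6.87 and 6.76 with vehicle. Its T3 arrays all lay below the vehicle arrays and also below the GC-1 arrays, and neither contrast with vehicle passed (0.03 with GC-1, adjusted p = 0.863, and -0.11 with T3, adjusted p = 0.267, limma). KLF2, known for quiescence of endothelium and T cells, had log2 differences of 0.11 with GC-1 and 0.07 with T3 (adjusted p = 0.527 and 0.667, limma). KLF3, a CtBP-recruiting repressor, had 0.08 with GC-1 and 0.04 with T3 (adjusted p = 0.484 and 0.678), and KLF13, a close relative of KLF9, had 0.02 and 0.05 with GC-1 and T3 (adjusted p = 0.945 and 0.788).

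KLF4, a reprogramming and epithelial factor, had 2 dim probe sets that lay among the lowest 13.9% of all probe sets by mean signal. The set 221841_s_at differed by 0.11 with GC-1 and -0.04 with T3 (adjusted p = 0.469 and 0.767, limma). The set 220266_s_at differed by -0.11 with GC-1 and by less than 0.01 with T3 (adjusted p = 0.673 and 0.988). RMA signals of dim sets are compressed, so differences there may be understated.

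Over the family, 2 of 16 probe sets passed the test with GC-1, both higher and both KLF9, where 2.8% of all probe sets passed (1.81% higher and 0.986% lower). With T3 3 of 16 passed, all higher, 2 of KLF9 and 1 of KLF6, where 5.5% of all probe sets passed (4% higher and 1.5% lower). That split moved with the scaling: 888 probe sets were higher and 334 lower with T3 as deposited, against 702 and 677 at equal interquartile range and 932 and 1152 with the interquartile range as covariate. By unadjusted p under 0.05, 5 of 16 passed with GC-1 and 8 of 16 with T3, where 15.9% and 21.1% of all probe sets did. The ligand arrays lay wholly on 1 side of the vehicle arrays in 6 of 16 sets with GC-1 and in 7 of 16 with T3, where 26.5% and 24.9% of all probe sets did. The median log2 difference of the 16 sets was 0.10 with GC-1 and 0.06 with T3, against medians near 0 over all probe sets. Apart from the sets that passed, the differences ran from -0.20 to 0.16 with GC-1 over 14 sets and from -0.19 to 0.19 with T3 over 13. The 2 ligand comparisons share the vehicle arrays and are set side by side only.

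**Figure D4:**
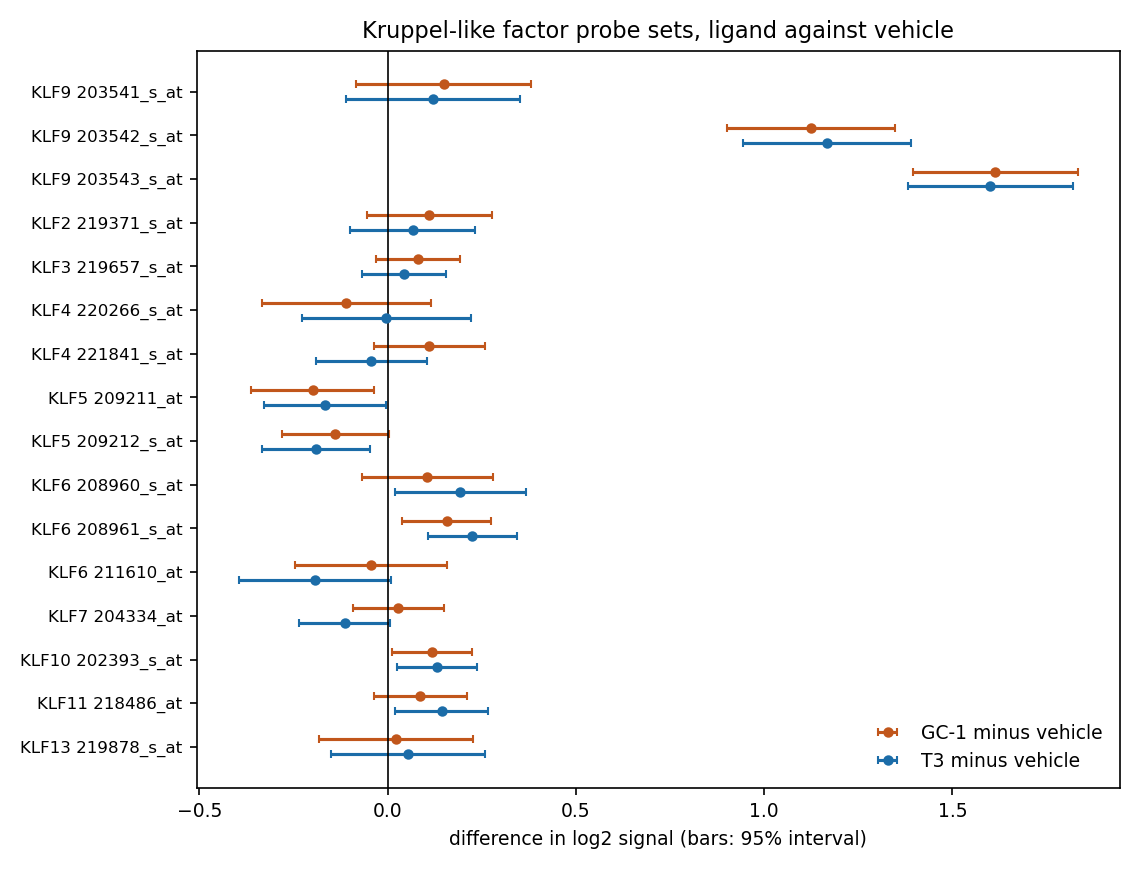
Differences in log2 signal (x axis, with 95% intervals from limma) of the 16 Kruppel-like factor probe sets, GC-1 minus vehicle and T3 minus vehicle. The KLF9 sets 203542_s_at and 203543_s_at stand at 1.12 to 1.61, and every other set lies between -0.20 and 0.23.

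Set directly against each other at 10 nM and 24 h, GC-1 and T3 differed in 0 of 16 KLF probe sets in limma, as in 0% of all probe sets. By unadjusted p under 0.05, 2 of 16 differed, where 14.1% of all probe sets did. For KLF9 the GC-1 minus T3 difference was -0.04 on 203542_s_at (95% interval -0.26 to 0.18, adjusted p = 0.881), 0.01 on 203543_s_at (interval -0.21 to 0.23, adjusted p = 0.967) and 0.03 on 203541_s_at (interval -0.20 to 0.26, adjusted p = 0.927). The intervals of the 2 responding sets allow GC-1 to reach from 0.83 to 1.13 times and from 0.87 to 1.17 times the T3 signal.

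The 2 sets with an unadjusted p under 0.05 were higher with GC-1. KLF7 204334_at differed by 0.14 (95% interval 0.02 to 0.26, unadjusted p = 0.0251, adjusted p = 0.300, limma), and KLF4 221841_s_at by 0.15 (interval 0.01 to 0.30, unadjusted p = 0.0423, adjusted p = 0.340). In these 2 sets all GC-1 arrays lay above all T3 arrays, a separation seen in either direction in 18% of all probe sets. All 16 intervals lay within 1.5-fold either way, as did 99.8% of all intervals, so that margin does not set the family apart. A p above the threshold is no evidence that both ligands have equal effects on these genes. By level, GC-1 and T3 stood together above vehicle on 2 of the 3 KLF9 probe sets, with no difference beyond the spread between the ligands, and on 203541_s_at the 3 groups did not differ beyond their spread.

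**Figure D5:**
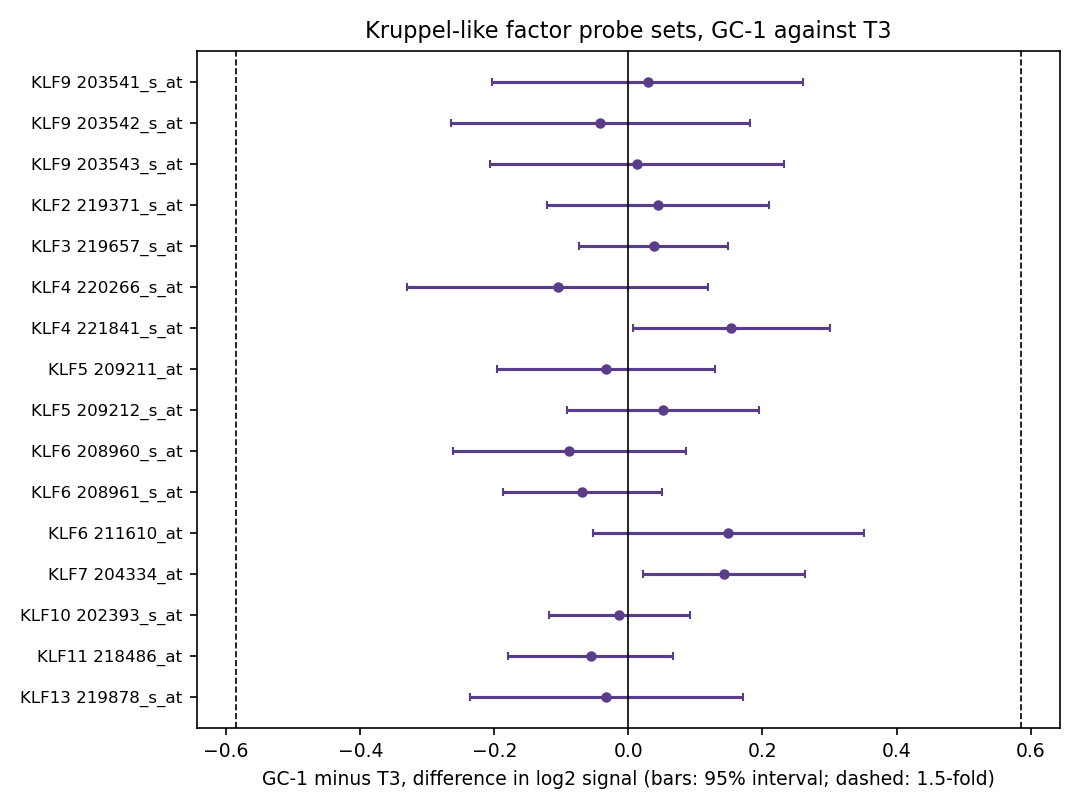
GC-1 minus T3 difference in log2 signal (x axis, with 95% intervals from limma) of the 16 Kruppel-like factor probe sets, with dashed lines at 1.5-fold either way. All intervals lie between the dashed lines, and those of KLF4 221841_s_at and KLF7 204334_at exclude 0.

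KLF9-DT, a noncoding gene whose annotated span overlaps the start of KLF9, was looked at after its values were seen. Its probe set 216489_at read 6.13, 5.98 and 6.24 with GC-1, 5.84, 5.85 and 5.91 with T3, and 6.05, 6.01 and 6.26 with vehicle. The T3 arrays lay below all others. Neither the difference with T3 (-0.24, adjusted p = 0.106, limma), nor that with GC-1 (0.01, adjusted p = 0.976), nor GC-1 minus T3 (0.25, 95% interval 0.08 to 0.42, adjusted p = 0.240) passed. The neighbour of KLF3, KLF3-AS1, differed by -0.06 with GC-1 and -0.05 with T3 (adjusted p = 0.771 and 0.741).

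The genes whose signal over the 9 arrays most resembled that of KLF9 203542_s_at, among 11953 other genes, each represented by its brightest probe set, were KTN1 (Pearson r = 0.985), FYN (0.982), IRS1 (0.977), FGG (0.976) and DIO1 (0.975). All 5 share the step between ligand and vehicle arrays. KTN1, which encodes the kinesin-binding protein kinectin, was 0.26 log2 units higher with GC-1 and 0.24 higher with T3. FYN, a Src family kinase, was 0.54 and 0.60 higher, and IRS1, an adaptor of the insulin receptor, 0.29 and 0.35 higher. FGG, the gamma chain of fibrinogen, was 0.31 and 0.35 higher, and DIO1, the deiodinase that makes and clears active hormone, 0.66 and 0.73 higher. All of these increases passed the test with both ligands (adjusted p up to 0.0221, limma), and all were smaller on the log2 scale than that of KLF9 203542_s_at. The 5 genes were picked by likeness to KLF9 on these same arrays, so that they passed was largely fixed by the choice.

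Of 8 measured KLF and SP factors, KLF1, KLF8, KLF12, KLF15, SP1, SP2, SP3 and SP4, 0 passed with either ligand (1 had an unadjusted p under 0.05 with GC-1 and 1 with T3). Over all genes 3.26% passed with GC-1 and 6.22% with T3, so that a count of 0 among 8 is near the background. Differences ran from -0.19 (SP1) to 0.14 (KLF8) with GC-1 and from -0.17 (SP4) to -0.05 (KLF1) with T3. Their median with T3 was -0.10, against -0.02 over all genes. KLF15, a glucocorticoid-induced regulator of gluconeogenesis and amino acid breakdown, had 0.01 with GC-1 and -0.09 with T3 (adjusted p = 0.956 and 0.452, limma).

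Of 13 measured cofactors of the family, 0 passed with GC-1 and 1 rose with T3, where 3.26% of all genes passed with GC-1 by their leading probe set (2.1% higher and 1.16% lower) and 6.22% with T3 (4.51% higher and 1.71% lower). The riser was FHL2, a LIM-domain coregulator, at 0.20 with GC-1 (adjusted p = 0.0688, limma) and 0.29 with T3 (adjusted p = 0.00614). The deacetylase HDAC2 differed by -0.19 with GC-1 (adjusted p = 0.0629) and -0.11 with T3 (adjusted p = 0.189). FHL3 was at -0.055 with GC-1 (adjusted p = 0.737, limma) and -0.21 with T3 (adjusted p = 0.0700). Its T3 arrays all lay below the vehicle arrays. The corepressor CTBP1 and the acetyltransferase CREBBP did not pass, at -0.05 and 0.05 with GC-1 and 0.02 and 0.08 with T3 (adjusted p = 0.682 and 0.688, and 0.819 and 0.434).

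Among 25 measured genes that KLF proteins are reported to regulate, 4 passed as higher with GC-1 and 6 with T3, and none passed as lower. Of all genes 2.1% and 4.51% rose with GC-1 and T3, and 1.16% and 1.71% fell. Like the other lists, this one was chosen with earlier results of these data known, so its counts cannot be read as a test. G6PC1, PCK1 and DIO1, which are themselves known thyroid hormone targets, led with both ligands. The gluconeogenic enzymes G6PC1 and PCK1 rose by 1.96 and 1.05 with GC-1 and by 2.43 and 1.45 with T3. CYP1A1, whose promoter gave KLF9 its early name as a basic transcription element binder, rose by 0.43 with GC-1 (adjusted p = 0.00704, limma) and by 0.43 with T3 (adjusted p = 0.00405). LGALS3 (galectin 3) was at 0.22 with GC-1 (adjusted p = 0.0944) and rose by 0.43 with T3 (adjusted p = 0.00182), and the nuclear receptor PPARD was at 0.22 (adjusted p = 0.0638) and rose by 0.29 (adjusted p = 0.00945). CCNE1 was at -0.22 with GC-1 (adjusted p = 0.0530, limma) and -0.18 with T3 (adjusted p = 0.0776). Its ligand arrays all lay below the vehicle arrays. The list's median difference was 0.06 with GC-1 and 0.09 with T3, against -0.005 and -0.02 over all genes.

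Glucocorticoid and clock-linked factors, which share inputs with KLF9, had 3 of 16 members higher with GC-1 (2.1% of all genes) and 4 with T3 (4.51% of all genes), and none lower (1.16% and 1.71% of all genes). DBP, a PAR-domain clock output factor, rose by 0.78 with GC-1 and by 0.77 with T3 (adjusted p = 0.00120 and 0.000811, limma). Its relative HLF rose by 0.49 and 0.60 (adjusted p = 0.000330 and 4.30e-05), and the phosphatase DUSP1 by 0.33 and 0.54 (adjusted p = 0.0197 and 0.000547). PER2, a clock repressor, was at 0.14 with GC-1 (adjusted p = 0.222) and rose by 0.25 with T3 (adjusted p = 0.0177). The glucocorticoid-induced chaperone FKBP5 was at -0.25 with GC-1 and -0.16 with T3 (adjusted p = 0.189 and 0.319, limma). CEBPD was at 0.16 with GC-1 and 0.19 with T3 (adjusted p = 0.203 and 0.0871). BMAL1 was at 0.17 with GC-1 and -0.02 with T3 (adjusted p = 0.176 and 0.873).

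TGF-beta early genes, the class to which KLF10 and KLF11 belong, had 1 of 16 higher and 2 lower with GC-1, and 3 higher and 2 lower with T3. Of all genes 2.1% were higher and 1.16% lower with GC-1, and 4.51% higher and 1.71% lower with T3. ID2 rose with both ligands (0.42 and 0.50, GC-1 and T3), and ID3 (-0.46 and -0.40) and BAMBI (-0.38 and -0.35) fell with both. BHLHE40 (0.39) and TGFBI (0.26) rose with T3 and were at 0.20 and 0.19 with GC-1 (adjusted p = 0.113 and 0.124, limma). SMAD7 and SKIL, direct feedback genes of that pathway, did not pass with either ligand. Of 13 immediate early zinc finger and AP-1 genes, 1 rose with GC-1 and 2 with T3, against the same shares of all genes. FOS rose with both ligands (0.37 with GC-1, adjusted p = 0.0193, and 0.48 with T3, adjusted p = 0.00248, limma), and IER3 rose with T3 (0.23, adjusted p = 0.0470) with 0.12 under GC-1 (adjusted p = 0.367). In the difference between GC-1 and T3, 0 genes of these lists passed, where 0% of all genes did, so that the count does not set the lists apart.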

How the data were processed

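Messenger RNA of HepG2 cells was measured on 9 Affymetrix arrays, 3 each of GC-1, T3 and vehicle, with groups taken from the titles. The deposited table holds RMA signals on a log2 scale, 1 value per probe set and array. RMA is named, without a version, per the submitters' processing notes, and base 2 was read off the range of the values. RMA compresses dim signals, so differences of dim probe sets are likely understated. Scanner files were not used here, so absence of a transcript could not be called.

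The 62 array controls were left out. The annotation gave 1 symbol for 19064 of 22215 probe sets, several for 1043 and none for 2108, and only 1-symbol sets were named. The contrasts come from limma 3.58.1 on R 4.3.3, with lmFit, then eBayes and two-sided p-values, from 1 model of 3 group means over all 9 arrays, checked on simulated data, with Benjamini-Hochberg adjustment over 22215 probe sets and a threshold of 0.05. Pairs of probe sets were compared by exact permutation. A gene outside the 10 was represented by its 1-symbol probe set with the highest mean. The genes described are all 16 probe sets of the 10 named members, the 5 genes most correlated with KLF9, and, from the lists, the genes past the threshold and up to 4 others. KLF9-DT and KLF3-AS1 were added after their values were seen. Promoter sequences are RefSeq's on GRCh38.p14. Members and lists were chosen with earlier results of these data known. Alternatives were other scalings, an interquartile-range covariate, a filter on dim sets, eBayes options, array weights, 2-group fits, a replicate block and leaving out each array.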

Additional observations from a re-analysis of the deposited data

How the results depend on the processing

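The rise of KLF9 203542_s_at kept its direction and its side of the threshold in all 18 alternative fits, at 1.06 to 1.18 with GC-1 and 1.04 to 1.23 with T3 on the log2 scale, and that of 203543_s_at in all 17 that tested it, at 1.52 to 1.73 and 1.51 to 1.72. The GC-1 minus T3 difference of KLF9 203542_s_at, -0.04, turned positive with the interquartile range as covariate (0.0481) and without T3 replicates 1 and 2 (0.088, an alternative chosen after seeing the data). It ran from -0.107 to 0.0815 when 1 array was left out, positive without T3 replicate 2 or GC-1 replicate 2, and passed the threshold in none of these. The cause was not tested. With the replicate block 2 KLF probe sets passed with GC-1 and 2 with T3. KLF9 203542_s_at kept adjusted p = 0.000979 and 0.000492, and KLF6 lost its T3 call. Over all probe sets the block left 347 calls with GC-1 and 773 with T3, against 622 and 1222 without it. Same-numbered arrays of different groups had deviations from their group means that correlated at -0.26 to 0.08, and differently numbered arrays at -0.30 to 0.29. With 3 arrays per group these deviations are not independent, so the check cannot decide whether the numbers pair the samples. Without dim probe sets 1 KLF set passed with GC-1, because 203543_s_at was among the sets removed and 6 of 16 were left. By unadjusted p under 0.05, 5 sets passed with GC-1, 8 with T3 and 2 between the ligands. Leaving out 1 array moved the count over all probe sets between 274 (without GC-1 replicate 1) and 1272 (without T3 replicate 3) with GC-1, and between 661 (without vehicle replicate 1) and 1356 (without T3 replicate 3) with T3, while 2 KLF sets passed with GC-1 and 2 or 3 with T3. Between GC-1 and T3 the count over all probe sets was 0 in the main fit. It was 338 (1.52%) without T3 replicate 3, 22 with the trend and robust options of eBayes, and 3 without dim sets. In each of these fits 0 KLF sets passed between the ligands. The number of arrays limits the precision: 95% intervals of the KLF sets reached from 0.11 to 0.23 log2 units either way.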
